A study of Drosophila melanogaster with 15 samples.

Results

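The genes described are those of p53 and the cell death core in Drosophila melanogaster: p53, its target Corp, the death activators skl and grim, the adaptor Dark, and the caspases Dronc and Dcp-1. They were chosen by name, with earlier results of these data known, from probe sets that carry exactly 1 gene symbol. Every probe set of p53 was taken, and otherwise the probe set with the highest mean over the arrays. Of 9 genes named, 7 were measured by 8 probe sets, out of 13647 probe sets with 1 symbol and 18769 tested. The caspase Drice and the caspase inhibitor Diap1 were not analysed here.

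Expression was measured on 15 Affymetrix 3' arrays, each hybridized with RNA from a pool of whole bodies of 25 males, 3 days old. The flies were controls or carried Dsup, a nucleosome-binding protein of a tardigrade that shields DNA, and were untreated or had received 1000 Gy. Untreated controls gave 4 arrays and irradiated controls 3, while Dsup lines 1 to 4 gave 1 array each untreated and 1 each after 1000 Gy. Control arrays were biological replicates, whereas the arrays of a Dsup group were different transgenic lines. The labels name no genetic background of the controls, so background and transgene cannot be told apart. The sources used here do not give the promoter that drives Dsup or the time between irradiation and RNA isolation. A level measured in a whole body cannot separate fewer cells of a type from less RNA per cell.

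In the fly, DNA breaks activate the kinases tefu (ATM) and mei-41 (ATR) and the checkpoint kinase lok, which in turn activates the transcription factor p53. p53 induces RHG genes such as rpr and hid, a family that also holds grim and skl and whose products bind inhibitor of apoptosis proteins such as Diap1 and so release caspases. Dark, the fly counterpart of Apaf-1, assembles with the initiator caspase Dronc, and Dronc cleaves the effector caspases Drice and Dcp-1. Corp is a p53-induced gene whose product holds p53 in check, and p53 also induces repair genes such as those of the Ku complex. This cascade is best known from embryos and imaginal discs, whose cells divide, while most cells of an adult body do not.

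The levels are log2 probe set values after quantile normalization of all 15 arrays, and differences are log2 differences of group means with their standard errors (SE). They were tested with limma and called at a Benjamini-Hochberg adjusted p below 0.05 over all probe sets. As deposited, the means of the arrays lay near 4.64, 4.05, 4.88 and 4.51 in untreated controls, untreated Dsup lines, irradiated controls and irradiated Dsup lines. The median of all probe sets therefore differed between groups by 0.23 (irradiated against untreated controls), 0.47 (the same in Dsup lines), -0.61 (Dsup lines against controls, untreated) and -0.39 (the same after 1000 Gy), and the changes below are relative to those shifts. In the irradiated controls, 5040 probe sets (26.9%) held 1 identical value in all 3 arrays, which lowers the spread of that group. The 18S ribosomal RNA probe set read 3.14 above the array's median on untreated control 4, against 6.98 to 8.0 on the other arrays. The 3' minus 5' difference of the actin and GAPDH control probe sets, a measure of RNA or labelling quality, averaged 1.02 and 1.12 in untreated controls and Dsup lines, and 1.42 and 1.31 after radiation. Most markers of the male body were high: 5 of 7 testis markers lay between percentiles 75.0 and 98.8 of level, 5 of 5 accessory gland markers between 97.8 and 98.8 and 3 of 3 ejaculatory tract markers between 99.1 and 99.9. The male RNAs roX1 and roX2 were not analysed here, and 7 measured female yolk and eggshell genes lay between percentiles 16.1 and 54.7. The other testis markers, bam (percentile 16.0) and twe (26.8), lay no higher than that range and were not shown to be present.

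In control flies, 1000 Gy changed 6 of the 8 probe sets, against 34.0% of all probe sets called in that comparison. Both p53 probe sets, Corp, Dronc and Dcp-1 rose (16.9% of all probe sets rose), and skl fell (17.1% of all fell). In the Dsup lines 3 of 8 passed, against 21.3% of all: p53 and Corp rose (10.7% of all rose) and skl fell (10.6% of all fell). The median change over the 8 probe sets was 0.44 in controls and 0.11 in Dsup lines, beside -0.01 and 0.01 over all probe sets. The remaining members, grim and Dark, passed in neither kind of fly.

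**Figure D1:**
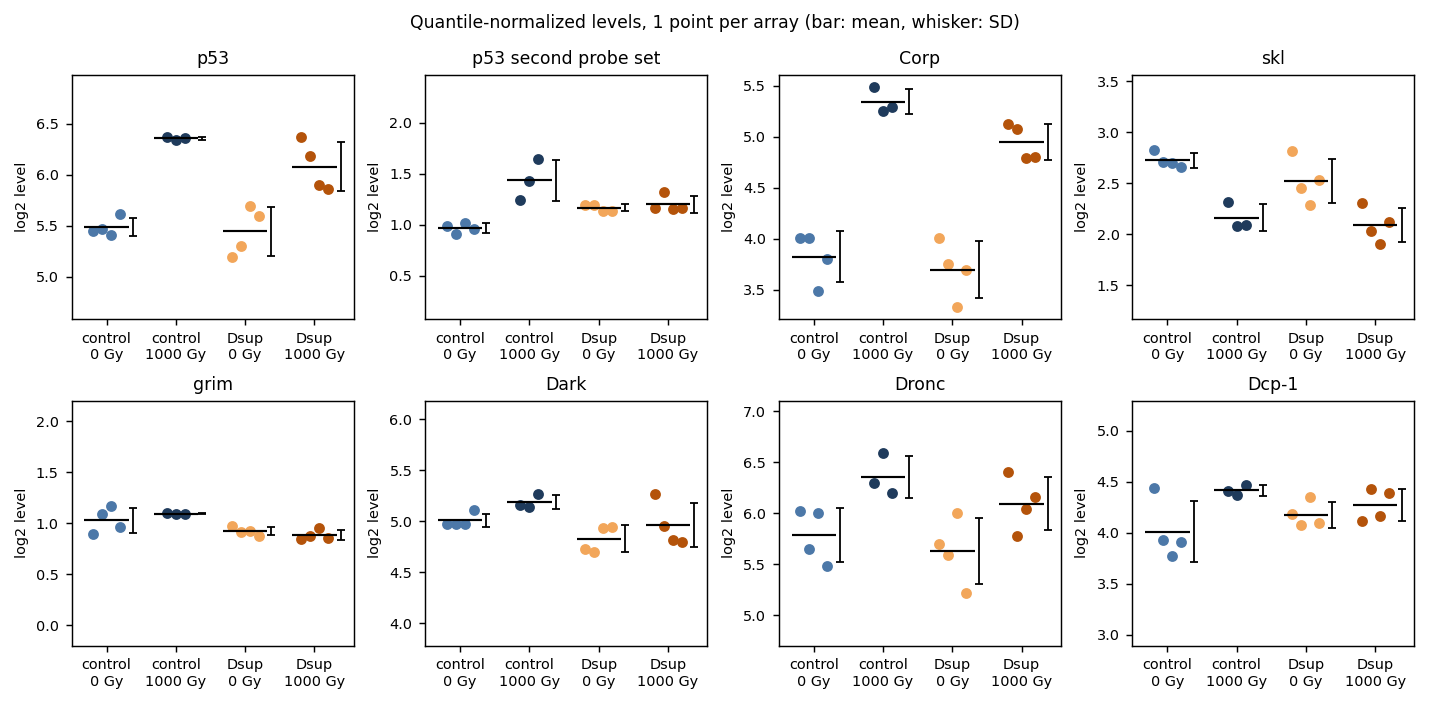
Quantile-normalized log2 level of each of the 8 probe sets (vertical axis, the same 2.4-unit span in each panel) in the 4 groups, with 1 point per array, the group mean as a bar and the SD as a whisker. Corp shows no overlap between untreated and irradiated arrays in either kind of fly, whereas grim stays near 1 in all groups.

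p53, the transcription factor at the head of the cascade, was read by 2 probe sets of very different level. The main one (1625134_at) lay at percentile 68.1 of mean level over all probe sets. Its levels were 5.44, 5.47, 5.41 and 5.62 in the untreated controls and 6.37, 6.34 and 6.36 in the irradiated ones. All irradiated controls lay above all untreated ones (as in 47.9% of all probe sets, in either direction), a rise of 0.87 ± 0.13 or 1.83-fold (limma, adjusted p = 0.000197).

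In the Dsup lines 1 to 4 the p53 level was 5.19, 5.30, 5.69 and 5.59 untreated and 6.37, 6.18, 5.90 and 5.86 after 1000 Gy. The groups did not overlap (as in 21.4% of all probe sets), and the rise was 0.63 ± 0.12 or 1.55-fold (limma, adjusted p = 0.00252). Lines 1 and 2 were the lowest untreated and the highest irradiated, so the change per line was 1.18, 0.88, 0.20 and 0.27. The 3' minus 5' difference of the irradiated lines followed the order of their p53 levels after 1000 Gy (1.454, 1.303, 1.237 and 1.236), with lines 3 and 4 nearly equal. In the untreated lines it was 1.185, 1.132, 1.153 and 1.013, another order than that of their p53 levels. The part of this quantity in the spread between lines was not tested. The order of the group means was irradiated controls (6.36), irradiated Dsup lines (6.08), untreated controls (5.49) and untreated Dsup lines (5.44). Neighbours of like treatment did not differ beyond their spread (limma, adjusted p = 0.202 after 1000 Gy and 0.872 untreated).

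As deposited, the 3 irradiated controls hold 1 identical value for p53, 6.83, so their spread carries no information. With the spread taken from the other 3 groups alone, the rise in controls was still called (limma, adjusted p = 0.000835). It was not called with the 3' minus 5' difference as a covariate (0.68, limma adjusted p = 0.0608), and the part of RNA quality in it was not tested further. Arrays also split by the level of the added bioD hybridization control, and the rise in controls was 0.90 in the lower set and 0.84 in the higher one. The lower set holds 2 untreated and 2 irradiated controls and line 1 alone, and the higher set holds 2 untreated controls, 1 irradiated control and lines 2 to 4. A lone array in these sets is assumed to vary like the other groups, so a missed threshold there says little. In Dsup lines the rise was 1.18 in line 1 and 0.45 in lines 2 to 4 (limma, adjusted p = 0.0729).

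The second p53 probe set (1630028_at) lay at percentile 2.54 of level, among the dimmest on the array. Its levels were 0.99, 0.90, 1.01 and 0.96 in untreated controls and 1.24, 1.43 and 1.64 in irradiated controls. The irradiated arrays all lay higher, by 0.47 ± 0.09 (limma, adjusted p = 0.000843). Within the lower bioD set the rise was 0.39 and not called (adjusted p = 0.0721). The Dsup lines gave 1.19, 1.19, 1.14 and 1.14 untreated and 1.17, 1.32, 1.15 and 1.16 after 1000 Gy. These groups overlapped, with a difference of 0.03 and a 95% confidence interval of -0.14 to 0.20.

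Corp, which restrains p53, had the largest rise of the 8 probe sets in both kinds of fly (1641082_at, percentile 50.3 of level). Its levels were 4.01, 4.01, 3.49 and 3.80 in untreated controls and 5.49, 5.26 and 5.29 after 1000 Gy. Every irradiated control lay more than 1 unit above every untreated one, and the rise was 1.52 ± 0.16 or 2.87-fold (limma, adjusted p = 8.59e-06). This change lay at percentile 99.1 of all probe sets.

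Corp in the Dsup lines read 4.01, 3.75, 3.33 and 3.70 untreated and 5.13, 5.08, 4.80 and 4.80 after 1000 Gy. Again the groups did not overlap, and the rise was 1.25 ± 0.14 or 2.38-fold (limma, adjusted p = 5.32e-05), at percentile 99.7 of all changes. Unlike p53, the lines were close to each other, with changes of 1.12, 1.32, 1.46 and 1.10 (SD 0.17, n = 4, against SD 0.48 for p53). The control rise was called in both sets of arrays split by the added bioD control (1.36 and 1.65) and with the 3' minus 5' covariate (1.52, limma adjusted p = 0.00492). Its rise in Dsup lines was called in the higher set (1.29), while line 1, alone in the lower set, gave 1.12.

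The RHG genes measured here were skl (sickle) and grim, whose products antagonize inhibitors of apoptosis. In the RefSeq annotation of Release 6 the 4 RHG genes follow each other on 1 chromosome arm in the order hid, grim, rpr and skl. No protein-coding gene lies between grim and rpr or between rpr and skl. The genes hid and rpr were not analysed here.

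skl (1630223_at, percentile 28.9 of level) fell, the only member to do so. That percentile is within the range of the female yolk and eggshell genes (16.1 to 54.7). By level alone skl was not shown to be present. It read 2.83, 2.71, 2.70 and 2.66 in untreated controls against 2.32, 2.08 and 2.09 after 1000 Gy. The groups did not overlap, and skl fell by 0.56 on the log2 scale (SE 0.12, limma adjusted p = 0.0022). Across the Dsup lines skl read 2.81, 2.45, 2.29 and 2.54 untreated and 2.30, 2.03, 1.90 and 2.12 irradiated. These groups overlapped narrowly, since line 1 irradiated lay just above line 3 untreated, but each line was lower after radiation, by 0.51, 0.43, 0.39 and 0.42 (mean change -0.43 ± 0.11, limma adjusted p = 0.0118). On the deposited scale the mean change of skl in the Dsup lines was -0.01, where the median probe set moved by 0.47. With the 3' minus 5' covariate the control fall was -0.65 and not called (limma, adjusted p = 0.053), and that quantity's part was not tested. The fall was -0.57 in the lower bioD set and -0.59 in the higher one, which holds 1 irradiated control (adjusted p = 0.0584).

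grim (1633724_at) lay at percentile 0.314 of level, near the bottom of the array. It read 0.90, 1.09, 1.17 and 0.96 in untreated controls and 1.10, 1.09 and 1.09 after 1000 Gy. Untreated Dsup lines gave 0.97, 0.92, 0.92 and 0.88 and irradiated ones 0.84, 0.88, 0.95 and 0.86. All groups overlapped with radiation, with differences of 0.07 (95% confidence interval -0.09 to 0.22) in controls and -0.04 (-0.18 to 0.11) in Dsup lines. As deposited, grim holds 1 identical value in the 4 untreated Dsup arrays (0.59) and another in the 3 irradiated controls (1.31).

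Dark, the Apaf-1-like adaptor that activates Dronc, passed in no comparison on this scale (1638709_at, percentile 57.0 of level). It read 4.98, 4.98, 4.98 and 5.11 in untreated controls and 5.16, 5.14 and 5.27 after 1000 Gy. Although these groups did not overlap, the difference of 0.18 (95% confidence interval -0.05 to 0.41) did not pass. The Dsup lines gave 4.73, 4.70, 4.94 and 4.95 untreated and 5.27, 4.96, 4.82 and 4.80 irradiated, a mean difference of 0.13 (-0.08 to 0.34). Lines 1 and 2 were higher after radiation and lines 3 and 4 lower (0.54, 0.25, -0.12 and -0.15), and lines 1 and 2 also had the larger changes in p53. A second, dimmer probe set of Dark (1624898_a_at) did not pass either, with 0.12 in controls and 0.22 in Dsup lines. Its changes per line (-0.01, 0.37, 0.20 and 0.31) did not share that split, so the parallel with p53 rests on 1 of the 2 probe sets.

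Dronc, the initiator caspase, rose in controls (1641607_at, percentile 69.9 of level). It read 6.02, 5.65, 6.0 and 5.48 in untreated controls and 6.29, 6.59 and 6.20 after 1000 Gy. The groups did not overlap, and the rise was 0.57 ± 0.19 or 1.49-fold (limma, adjusted p = 0.0286). Dronc in the Dsup lines read 5.70, 5.60, 6.01 and 5.22 untreated and 6.40, 5.77, 6.05 and 6.16 irradiated, which overlapped. All 4 lines were higher after radiation, by 0.70, 0.18, 0.04 and 0.94, but the mean of 0.47 (95% confidence interval 0.09 to 0.84) missed the threshold (limma, adjusted p = 0.069). It passed without untreated line 3 (0.59, adjusted p = 0.0244) or irradiated line 2 (0.57, adjusted p = 0.0416), with median centring (0.50, adjusted p = 0.0481) and as deposited (0.92). The control call was lost without untreated control 2 (adjusted p = 0.068) or 4 (0.0756), and without irradiated control 1 (0.0595) or 2 (0.131). It was also lost with the 3' minus 5' covariate (0.54, adjusted p = 0.305) and within the lower bioD set (0.61, adjusted p = 0.0975), while the higher set, with 1 irradiated control, gave 0.45.

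Dcp-1, an effector caspase, had the smallest rise in controls to be called (1637487_at, percentile 48.4 of level). It read 4.44, 3.93, 3.77 and 3.91 in untreated controls and 4.41, 4.37 and 4.47 after 1000 Gy. Untreated control 1 lay among the irradiated arrays and the other 3 below them, and the rise was 0.40 ± 0.14 or 1.32-fold (limma, adjusted p = 0.032). Dcp-1 in the Dsup lines read 4.19, 4.07, 4.35 and 4.10 untreated and 4.12, 4.43, 4.17 and 4.39 irradiated. These groups overlapped, with a difference of 0.10 (95% confidence interval -0.17 to 0.37). The control call was lost without any 1 of untreated controls 2, 3 and 4 or irradiated controls 1, 2 and 3 (adjusted p from 0.0642 to 0.0998), and with Dsup line as a block (0.0541). It was also lost with ribosomal protein centring (0.28) and with the spread of the irradiated controls left out (adjusted p = 0.055), and the lower bioD set gave 0.20 (adjusted p = 0.496). With the 3' minus 5' covariate it was larger and still called (0.75, adjusted p = 0.0306).

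**Figure D2:**
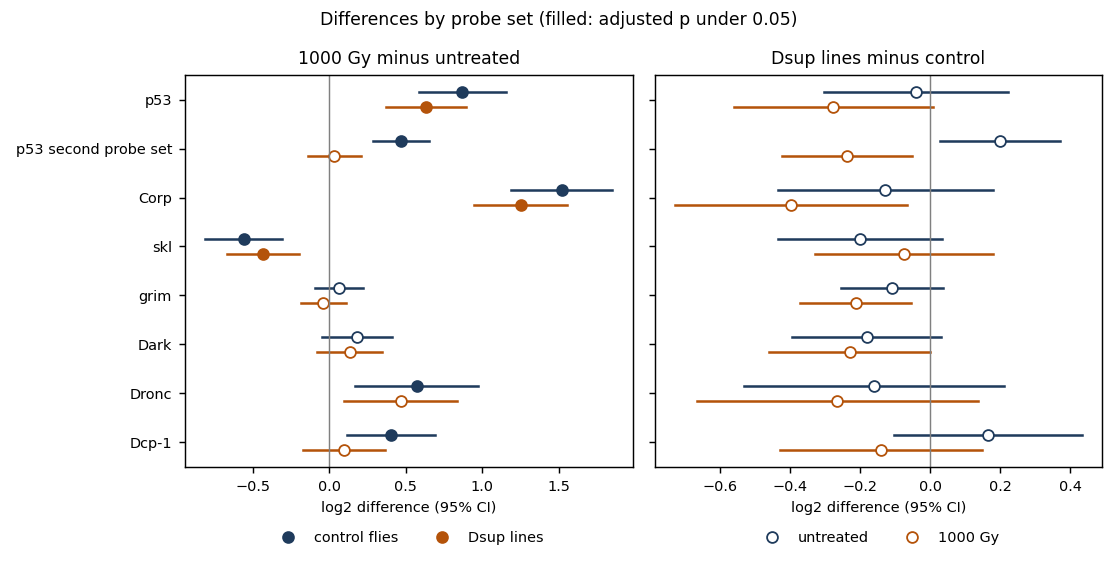
Log2 difference of each of the 8 probe sets with its 95% confidence interval, for irradiated minus untreated flies (left, by genotype) and Dsup lines minus controls (right, by treatment). Filled points passed at an adjusted p below 0.05: 6 in controls and 3 in Dsup lines on the left, none on the right.

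Dsup lines and controls were then compared at equal treatment. In untreated flies 0 of the 8 probe sets passed in limma, against 10.7% of all, and 1 had an unadjusted p below 0.05. Corp differed by -0.13 (95% confidence interval -0.43 to 0.18), p53 by -0.04 (-0.30 to 0.22), Dronc by -0.16 (-0.53 to 0.21) and Dcp-1 by 0.17 (-0.10 to 0.43). The second p53 probe set was higher in every untreated Dsup line than in every untreated control, by 0.20 ± 0.08, and did not pass (limma, adjusted p = 0.125); 13.6% of all probe sets had no overlap there. It did pass with median centring (0.43, adjusted p = 0.00875) and ribosomal protein centring (0.40, adjusted p = 0.0113), and on the deposited scale it was lower in Dsup lines (-0.24).

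After 1000 Gy, 0 of 8 passed in limma, against 5.97% of all higher and 6.06% lower, and 4 had an unadjusted p below 0.05. On this scale each of the 8 differences was negative, from -0.40 for Corp to -0.07 for skl, with a median of -0.23 beside 0.01 over all probe sets. The signs of 3 turned with median and with ribosomal protein centring, to 0.09 and 0.03 for the second p53 probe set, 0.11 and 0.05 for skl and 0.13 and 0.07 for grim. The other 5 were negative under all 4 scalings, and with ribosomal protein centring p53 (-0.39, adjusted p = 0.0269) and Dark (-0.31, adjusted p = 0.043) passed. All 4 irradiated Dsup lines read lower than all 3 irradiated controls for Corp (-0.40 ± 0.16, adjusted p = 0.114) and, on this scale but not with the centrings, for grim (-0.21 ± 0.07, adjusted p = 0.075). Groups that did not overlap made up 36.3% of all probe sets in that comparison. The interval for p53 ran from -0.56 to 0.01, for Dark from -0.46 to -0.00 and for Dronc from -0.67 to 0.14. The second Dark probe set went the other way, 0.31 higher in Dsup lines (limma, adjusted p = 0.0589), so the 2 probe sets of Dark disagree in sign.

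These counts depended on the scale. On the deposited values 8 of 8 probe sets passed as lower in Dsup lines in untreated flies and 8 of 8 after 1000 Gy. The median probe set was shifted the same way. Of all 18769 probe sets, 16742 and 11606 were called in these comparisons, in either direction. With radiation, the deposited values gave 7 higher and 1 lower in controls, and 7 higher and 0 lower in Dsup lines. Of all probe sets, 9297 and 14489 were called there, in either direction. The high counts on this scale were therefore not shown to be particular to the members. Corp rose under all 4 scalings in both kinds of fly, by 1.43 to 1.74 in controls and by 1.08 to 1.65 in Dsup lines.

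**Figure D3:**
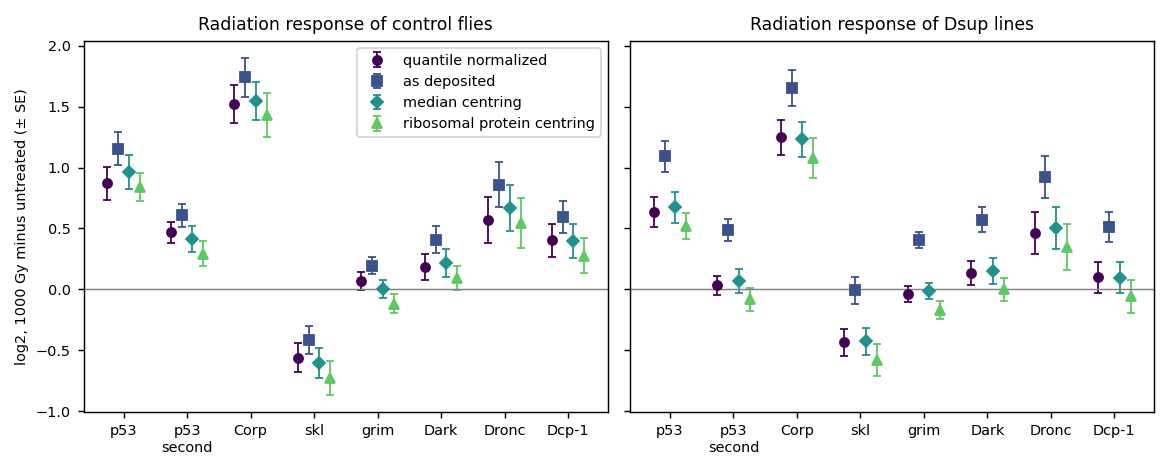
Log2 difference between irradiated and untreated flies (± SE) of the 8 probe sets in controls (left) and Dsup lines (right), after quantile normalization, as deposited, with each array centred on its median, and centred on ribosomal protein genes. The deposited values lie above the others in Dsup lines, where grim moves from -0.04 to 0.40 and skl from -0.43 to -0.01.

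Whether the radiation response differed by genotype was tested as the interaction, the response of Dsup lines minus that of controls. Of the 8 probe sets 1 passed, against 9.08% of all. This was the dim second probe set of p53, with -0.44 ± 0.12 (limma, adjusted p = 0.0326). The main p53 probe set gave -0.24 (95% confidence interval -0.62 to 0.15), Corp -0.27 (-0.72 to 0.18), Dcp-1 -0.31 (-0.70 to 0.09), Dronc -0.11 (-0.65 to 0.44) and skl 0.13 (-0.22 to 0.47). A call in controls that was missing in Dsup lines, as for Dronc and Dcp-1, was therefore not shown to be a difference between genotypes. The call on the second p53 probe set was lost on the deposited values (-0.12), with median centring (-0.35, adjusted p = 0.165) and without any 1 of 7 arrays: untreated control 2, untreated Dsup lines 1 and 2, irradiated controls 2 and 3 and irradiated Dsup lines 3 and 4 (adjusted p from 0.0508 to 0.102).

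**Figure D4:**
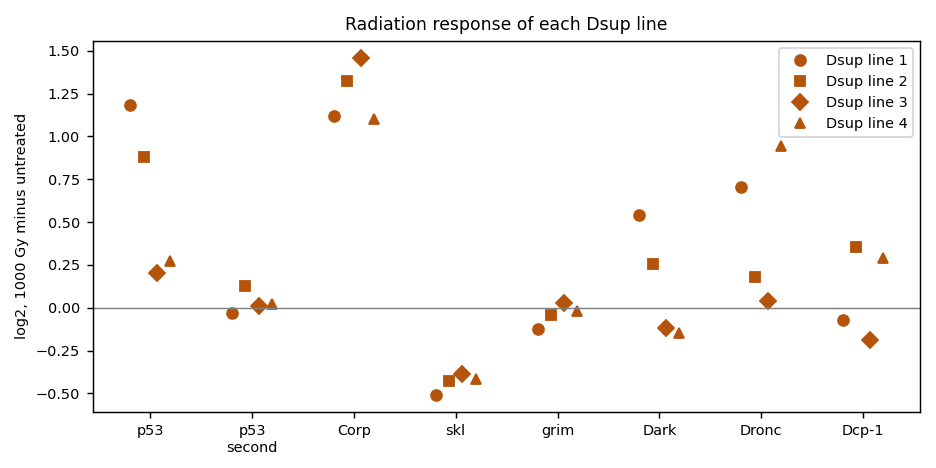
Log2 difference between irradiated and untreated flies for each of the 8 probe sets in each Dsup line, with 1 array per line and treatment and so no error per point. The lines lie close together for skl (-0.51 to -0.39) and spread widest for p53 (0.20 to 1.18) and Dronc (0.04 to 0.94).

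Members varied together in part. As a description over 15 arrays, which share groups, p53 and Corp levels correlated at Pearson r = 0.88, while their deviations from the group means correlated at -0.08. The deviations of p53 and Dark correlated at 0.91 (0.88 without the 2 arrays farthest in p53), the highest value among the member pairs. Those of p53 and Dronc gave 0.01, and those of p53 and Dcp-1 -0.01. The second Dark probe set, which did not share the split by line, was not among these pairs. Corp and skl levels ran opposite (r = -0.68), radiation having moved them in opposite directions, while their deviations within groups ran together (0.73). The genes with the array profile most like that of p53, of 9348 genes compared, were CG18635, Arc2, RPA2, CG12868 and cactin, with r from 0.97 to 0.96. The closest to Corp were Obp56i, mex1, CG7702, Mayo and CG7509, with r from 0.97 to 0.95.

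Other targets of p53 were measured beside the members. Of 10 further p53 targets listed, 7 were measured, and 6 of these rose in controls with a median of 1.37 over the 7, where 16.9% of all probe sets rose. The list was chosen with earlier results of these data known. Its counts here and below, beside the shares of all probe sets, are therefore a description and no test of the list. RnrL, which encodes the large ribonucleotide reductase subunit, rose by 2.47 ± 0.27, and Irbp and Ku80, the Ku70 and Ku80 subunits of the end-joining complex, by 2.11 ± 0.29 and 1.91 ± 0.23. The bZIP factor gene Irbp18 rose by 1.37 ± 0.18. Also among the 6 were the transcription factor gene Ets21C (1.29 ± 0.15) and egr (0.25 ± 0.09), the fly TNF ligand, while mre11, a subunit of the MRN break sensor, gave 0.20 ± 0.26.

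In the Dsup lines 3 of these 7 targets rose, with a median of 0.45, where 10.7% of all probe sets rose: Irbp and RnrL by 0.83 each and Ku80 by 0.81. After 1000 Gy 5 of 7 were lower in Dsup lines than in controls, where 6.06% of all were lower. They were Irbp (-1.44 ± 0.29), RnrL (-1.25 ± 0.27), Ku80 (-1.06 ± 0.23), Irbp18 (-0.78 ± 0.18) and Ets21C (-0.73 ± 0.15). The interaction passed for 4 of 7, all negative, against 4.77% of all: RnrL (-1.64 ± 0.37), Ku80 (-1.10 ± 0.31), Ets21C (-0.94 ± 0.20) and Irbp18 (-0.92 ± 0.25). Between untreated Dsup lines and controls 0 of the 7 passed in limma, and 0 had an unadjusted p below 0.05. These comparisons share arrays, so their counts are not independent of each other. In place of 3 rises in Dsup lines and 4 interactions, 0 and 1 passed with the 3' minus 5' covariate, 1 and 2 with the spread of the irradiated controls left out, and 2 and 0 with dim probe sets removed. They were 7 and 4 as deposited, 1 and 5 with ribosomal protein centring, and 0 and 0 in the lower and 1 and 1 in the higher bioD set. As deposited, 5 of the 7 also passed as lower in untreated Dsup lines, where 16742 of all 18769 probe sets were called in either direction. With radiation in Dsup lines, 14489 of all were called as deposited. With the covariate, calls over all probe sets went from 3999 to 2312 in Dsup lines and from 1704 to 886 in the interaction. With dim probe sets removed those calls were 1920 and 137, out of fewer probe sets tested. That filter also takes out Ets21C itself (percentile 32.1 of level), so its interaction could not be called there. The lower counts were therefore not shown to be particular to these targets.

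Genes upstream of p53 were divided. Of 11 listed damage kinases and partners 9 were measured, and in controls 3 rose (16.9% of all probe sets) and 1 fell (17.1% of all). Those that rose were nbs (0.72 ± 0.16) and rad50 (0.61 ± 0.22), subunits of the MRN complex, and Hus1-like (0.44 ± 0.13), of the checkpoint clamp. The kinase gene mei-41 fell by 0.33 (SE 0.09). In Dsup lines 0 of the 9 passed in limma (21.3% of all), and 1 had an unadjusted p below 0.05. After 1000 Gy the same MRN and clamp genes were lower in Dsup lines (nbs -0.79, rad50 -0.76, Hus1-like -0.49), and tefu was 0.38 higher. Of all probe sets 6.06% were lower there and 5.97% higher. In untreated flies these differences were -0.32, -0.38, -0.04 and 0.16, none of them called. The interaction passed for 0 of the 9 (9.08% of all), with limma adjusted p = 0.211 for nbs, 0.467 for rad50 and 0.134 for Hus1-like. A genotype difference in their response was therefore not shown.

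Of the other caspases, 3 of 4 were measured. Of all probe sets 16.9% rose in controls and 10.7% in Dsup lines. Strica, an initiator-like caspase, rose by 0.64 ± 0.12 in controls and by 0.40 ± 0.11 in Dsup lines. Damm, an effector-like caspase, rose in Dsup lines (0.62 ± 0.20, adjusted p = 0.0393) and gave 0.55 ± 0.21 in controls (adjusted p = 0.061). Neither passed the interaction test (limma, adjusted p = 0.403 and 0.92).

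Genes that restrain or modulate cell death were measured next. Of 5 measured inhibitor of apoptosis genes and ubiquitin partners, only Bruce passed in controls (-0.86 ± 0.22), where 17.1% of all probe sets fell. Bruce is a giant ubiquitin ligase with an inhibitor of apoptosis domain. In Dsup lines 0 of 5 passed in limma (21.3% of all), with 1 at an unadjusted p below 0.05. Bruce gave -0.58 ± 0.20 there (limma, adjusted p = 0.0515), and its interaction did not pass (limma, adjusted p = 0.61). Buffy, one of the pair of Bcl-2 family genes, fell by 0.43 in controls (SE 0.12) and gave 0.23 ± 0.11 in Dsup lines, with an interaction of 0.67 ± 0.16 (limma, adjusted p = 0.0183), where 4.31% of all were positive. In untreated flies Buffy was lower in Dsup lines than in controls (-0.46 ± 0.11), where 5.25% of all were lower.

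Among 4 measured apoptosome and death receptor partners, the TNF receptor genes wgn and grnd moved in opposite directions in controls, by -0.64 ± 0.13 and 0.32 ± 0.10, and HtrA2, a mitochondrial protease gene, fell by 0.27. Of all probe sets 17.1% fell and 16.9% rose there. In Dsup lines 0 of the 4 passed in limma (21.3% of all), and 0 had an unadjusted p below 0.05. Between irradiated flies, grnd alone of the 4 passed, lower in Dsup lines than in controls (-0.38 ± 0.10, limma adjusted p = 0.0254). Of all probe sets 6.06% were lower there. In untreated flies the difference for grnd was -0.09 and not called. The interaction was called for 0 of the 4 (limma, adjusted p = 0.0976 for wgn, 0.222 for grnd and 0.497 for HtrA2). A genotype difference in their response was therefore not shown. Of 4 measured genes of the DNA fragmentation factor family, Drep1 fell by 0.57 in controls and by 0.43 in Dsup lines. Drep3 rose by 0.20 and 0.40. Of all probe sets 17.1% fell and 16.9% rose in controls, and 10.6% fell and 10.7% rose in Dsup lines. Drep3 was also lower in untreated Dsup lines than in untreated controls (-0.26 ± 0.06, limma adjusted p = 0.0195), where 5.25% of all were lower. Its interaction did not pass (limma, adjusted p = 0.199). Of 4 measured clearance genes, drpr, the engulfment receptor, fell by 0.33 in controls, and Ced-12, an engulfment adaptor, rose by 0.21 in Dsup lines. Neither passed the interaction test (limma, adjusted p = 0.444 for drpr and 0.0577 for Ced-12). NimC4, another phagocytic receptor, was 1.25 ± 0.34 higher in untreated Dsup lines than in untreated controls, where 5.42% of all were higher.

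Over the 8 lists 38 of 55 genes were measured. In controls 12 rose and 7 fell, with a median of 0.09, where 16.9% of all probe sets rose and 17.1% fell. In Dsup lines 7 rose and 1 fell, with a median of 0.01, where 10.7% of all rose and 10.6% fell. Between genotypes 1 was higher and 2 lower in untreated Dsup lines (5.42% and 5.25% of all), and 1 was higher and 9 lower after 1000 Gy (5.97% and 6.06% of all). The interaction passed for 5 of the 38 (9.08% of all), of which 4 were negative (4.77% of all). The 19 and 30 genes that did not pass with radiation in controls and Dsup lines were not shown to be unchanged.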

How the data were processed

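Levels of 18952 probe sets were read on 15 arrays. The authors deposited log2 values, as read from their range, and no source used here gives the probe summary, normalization or genome build. Per the labels' protocols, total RNA was labelled as biotinylated cRNA (3' kit). Affymetrix's own 183 control probe sets were removed. The other 18769 were quantile normalized over all arrays and fitted with limma 3.58.1 in R 4.3.3: 1 mean per group, empirical Bayes, 5 contrasts, two-sided tests, Benjamini-Hochberg adjustment over all probe sets. The p-values reflect spread between these samples only, and the number of arrays limits the precision. The fit was tested on simulated data.

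The members and lists were chosen with earlier results of these data known. Members were named by their list (p53 with every probe set, others with the highest mean), further genes as counts per list with up to 4 called genes of largest change per list and comparison; some named beyond that rule (egr and mre11, for example) complete a list or were chosen after their values were seen. Nearest patterns took the 5 highest correlations at or above percentile 40 of level.

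Alternatives were the deposited values, median centring, ribosomal protein centring (47 probe sets), removal of dim probe sets, leaving out arrays, replicate blocks, spread without the irradiated controls, trend and robust moderation, a 3' minus 5' covariate, the split by added bioD control (6 and 9 arrays) and the other Dark probe set. The labels give the same Dsup lines untreated and irradiated, so line pairs those arrays, and deviations of same-line arrays correlated at -0.01, 0.11, -0.10 and -0.18. Control numbers pair nothing in the labels. No sequence or coordinate is printed. Gene order was taken from RefSeq Release 6.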

Additional observations from a re-analysis of the deposited data

Results flagged for a closer look

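Of 24 sets of 4 arrays examined (8 probe sets in 3 groups), 2 held an array far from the rest, and chance alone gives this in about 1 in 20 sets. The second p53 probe set read 1.32 in irradiated Dsup line 2, with the nearest other line at 1.17. Dark read 5.11 in untreated control 4, with the nearest other control at 4.98, and this is the array that stood apart in 18S ribosomal RNA.

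The second p53 probe set, at percentile 2.54 of level, passed the interaction test with -0.44 (limma, adjusted p = 0.0326), as did 9.08% of all probe sets. The call was lost in 7 of 15 fits with an array left out, as deposited (-0.12), with median centring (-0.35), ribosomal protein centring (-0.38) and label number as a block (-0.43), and with the 3' minus 5' covariate (-0.48). The main p53 probe set gave -0.24, with a 95% confidence interval of -0.62 to 0.15.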

How the results depend on the processing

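The number of member probe sets called in controls (6) was 3 with the 3' minus 5' covariate and 3 within each set of arrays split by the added bioD control. The number in Dsup lines (3) was 7 as deposited and 0 within the lower bioD set, which holds 1 Dsup array per treatment. Dsup lines against untreated controls (0) gave 8 as deposited and 1 with median or ribosomal protein centring. After 1000 Gy (0) the count was 8 as deposited, 2 with ribosomal protein centring and 1 with label number as a replicate block or with trend and robust moderation. The interaction (1) went to 0 as deposited, with both centrings, with label number as a block and with the covariate. Removal of dim probe sets takes out the second p53 probe set, the only one called, so that setting could not test its call. Leaving out arrays gave 4 to 6, 3 to 4, 0 to 0, 0 to 1 and 0 to 1 calls in that order. Calls over all 18769 probe sets moved too. In controls they were 6384 in the main fit and 1818 with the 3' minus 5' covariate. The fall to 3 members there was therefore not shown to be particular to the members. For the interaction, calls over all rose from 1704 to 4298 as deposited, while the member call was lost. As deposited, 3 values reversed: grim in Dsup lines (0.40), and in untreated Dsup lines against controls the second p53 probe set (-0.24) and Dcp-1 (-0.52).

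With Dsup line as a replicate block 3 probe sets were called in Dsup lines and 5 in controls, where Dcp-1 was lost, and no other member's call changed. Block fits of Dsup lines against controls were not run, because the block removes the spread between lines. Over 454 values under other settings, 399 kept direction and call, 25 lost it, 27 gained it and 3 reversed. That count takes in 31 sign changes called in neither fit. Over 600 values with an array left out, 579 kept both, 17 lost and 4 gained a call. The 579 take in 9 sign changes called in neither fit. The causes were not tested. The dim level of grim and of the second p53 probe set limits what they show. The levels of skl (percentile 28.9), Dcp-1 (48.4) and Corp (50.3) lay within the range of the female genes (16.1 to 54.7). By level alone these members were not shown to be present.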
